A study of Mus musculus with 2 samples.

Results

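The genes of glycolysis and the pentose phosphate pathway were followed step by step in leukemic stem cells (LSCs) from mice with a model form of chronic myeloid leukemia (CML). The list named 37 genes by their symbols, from the glucose carriers to lactate export, the switch at pyruvate dehydrogenase and the pentose phosphate branch, and 36 of them were listed among the 23284 gene symbols of the deposited files. The absent symbol was Pkm, whose older name Pkm2 was listed. Its values are given beside the members and it is not counted among them. The rule names the genes by symbol and sets no threshold on their values.

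There was 1 library of WT cells and 1 library of STAP-1 KO cells. In both groups, bone marrow stem and progenitor cells of C57BL/6J mice were transduced with a retrovirus that carries human BCR-ABL and green fluorescent protein (GFP). They were transplanted into lethally irradiated C57BL/6SJL recipients, and GFP+ CD45.2+ cells with the LSK phenotype (lineage negative, Sca-1+, c-Kit high) were sorted at day 11. The donor cells of the STAP-1 KO library carried a targeted disruption of the STAP-1 gene in all cells, mice of the study were 8 to 14 weeks old, and whether animals were pooled is not stated. With 1 library per genotype no difference has a replicate check, no p-value is given, and the genotype cannot be told apart from the mouse, the sort or the preparation.

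Glycolysis splits glucose into pyruvate in the cytosol and yields ATP without oxygen, and lactate dehydrogenase and the monocarboxylate transporters remove the product as lactate. Most steps are served by several isoforms encoded by separate genes, which differ in tissue, affinity and control. Many glycolytic genes are known targets of the oxygen-regulated factor HIF-1 and of MYC, and glycolysis is the main energy source described for quiescent hematopoietic stem cells. The pentose phosphate pathway branches off at glucose 6-phosphate and supplies NADPH and ribose for nucleotides.

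Values are FPKM (mapped fragments scaled to exon length and library), which the authors computed. FPKM is per transcript length, so levels of different genes can be set side by side with some caution. Sequence shared with other genes and a dependence of the ratios on transcript length, both described below, limit this. The log2 ratio has the STAP-1 KO level plus 0.1 FPKM over the WT level plus 0.1 FPKM. A gene was past the cut-off when 1 library had 2 or more times the level of the other and neither was below the floor of 0.1 FPKM. The files do not state read numbers. From the steps between low values, effective depths of 7500000 reads (WT) and 10470000 reads (STAP-1 KO) were estimated, and 3 reads then correspond to 0.223 and 0.16 FPKM for a transcript of 2000 bases. Intervals are 95% Clopper-Pearson intervals of the ratio of these estimated reads, without a pseudocount. They cover counting error only, and not the spread between mice or preparations.

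Of the 36 members, all of which passed the floor, 10 were at least 2-fold lower and 3 at least 2-fold higher in the STAP-1 KO library. These are 27.8% and 8.33% of the members. Among all 12507 genes past the floor, 22.9% were lower and 12.3% were higher by the same rule (35.2% in either direction), so the share of members past the cut-off was near the background. For medians, genes were kept when the 2 libraries averaged 1 FPKM or more. The 34 members kept had a median log2 ratio of -0.10, and the 10974 genes kept in all one of -0.04. The members spread from -4.78 (Eno2) to 2.55 (Hk3). Among the 3 isoforms of a step the ratios could differ in sign, as for the hexokinases, while the summed level of a step differed by less than 2-fold except for glucose uptake, PFKFB and Gapdh.

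**Figure D1:**
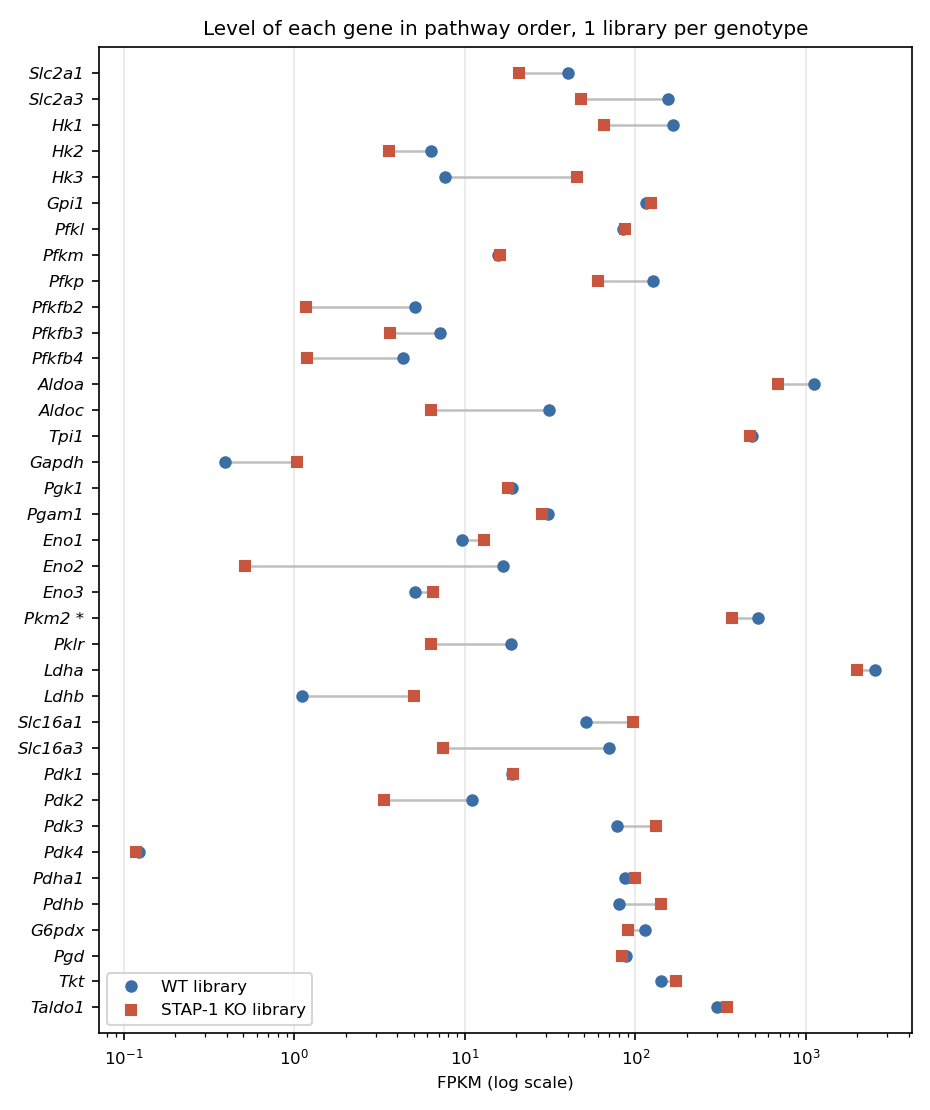
FPKM of each gene (log scale) in the WT library (circles) and the STAP-1 KO library (squares), in pathway order, with a grey line joining the values of a gene; the asterisk marks Pkm2, which is not counted as a member. Ldha is the highest in both libraries, and the widest gap is that of Eno2 (16.7 and 0.513 FPKM).

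Stap1 had 62.0 FPKM in WT and 0.309 FPKM in STAP-1 KO LSCs, which matches the labelled genotypes. All 7 LSK markers were detected, 2 at least 2-fold lower and 1 higher, and Kit, a sort antigen, had 468 and 30.1 FPKM and Ly6a (Sca-1) 285 and 106 FPKM. The 10 mast cell and basophil markers summed to 51441 FPKM in WT and 5323 FPKM in STAP-1 KO LSCs, and 9 of them were at least 2-fold lower in the latter. The 5 neutrophil primary granule markers summed to 564 and 4623 FPKM, and all 5 were at least 2-fold higher. The 8 erythroid markers found summed to 2602 and 1293 FPKM, with 4 lower and 1 higher, the 5 megakaryocyte markers to 194 and 131 FPKM, with 1 lower and 1 higher, and the 6 monocyte and macrophage markers to 152 and 136 FPKM, with 2 lower and 2 higher. The 4 T lymphoid markers found summed to 15.2 and 48.7 FPKM. The 5 B lymphoid markers summed to 3.10 and 17.9 FPKM, and Ebf1 and Pax5 were listed at 0 in both libraries. In such bulk libraries fewer cells of a type and less RNA per cell cannot be told apart, and the part of these cell types in the differences below was not tested.

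The regions before the gene starts of 4 members are shown first, since results below turn on these genes: Slc16a3 and Slc16a1, which export lactate and differed in opposite directions, Hk3, the member with the highest ratio, and Ldha, the most abundant member. Each is the stretch of 250 bases before the RefSeq start (GRCm38.p6), 5′ to 3′ on the strand of the gene. They lie at chr11:120948817-120949066 on the plus strand (Slc16a3), chr3:104638414-104638663 on the plus strand (Slc16a1), chr13:55021386-55021635 on the minus strand (Hk3) and chr7:46845554-46845803 on the plus strand (Ldha). The windows of Slc16a3 and Ldha lie inside the span that GENCODE M21 gives the gene, after the start of a longer transcript. Capitals mark ACGTG and GCGTG on either strand, the core letters of HIF response elements. The E-box CACGTG, to which MYC and its partner MAX bind, is a palindrome that contains ACGTG on both strands, so each CACGTG counts as 2 matches of ACGTG. For Ldha the window with the more matches of the 2 in the table is shown, and the other held 1 match of GCGTG. The nearest GENCODE start of Ldha lies 35 bases after the RefSeq start of the window shown, and those of the others at most 4 bases from theirs.
Slc16a3: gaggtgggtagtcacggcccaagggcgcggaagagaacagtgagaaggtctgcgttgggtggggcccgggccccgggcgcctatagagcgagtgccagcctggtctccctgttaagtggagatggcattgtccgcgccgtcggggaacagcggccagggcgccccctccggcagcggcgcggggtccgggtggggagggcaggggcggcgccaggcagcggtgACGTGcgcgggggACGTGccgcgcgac
Slc16a1: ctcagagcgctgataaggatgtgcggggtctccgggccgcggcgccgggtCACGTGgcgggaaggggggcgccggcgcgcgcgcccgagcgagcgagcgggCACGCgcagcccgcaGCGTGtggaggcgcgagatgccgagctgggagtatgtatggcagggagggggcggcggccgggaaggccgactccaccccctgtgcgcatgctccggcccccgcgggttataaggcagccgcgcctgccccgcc
Hk3: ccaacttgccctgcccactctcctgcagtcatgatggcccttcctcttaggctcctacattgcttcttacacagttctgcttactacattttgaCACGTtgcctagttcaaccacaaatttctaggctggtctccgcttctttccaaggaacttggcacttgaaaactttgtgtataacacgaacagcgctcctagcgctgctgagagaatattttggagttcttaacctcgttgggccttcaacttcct
Ldha: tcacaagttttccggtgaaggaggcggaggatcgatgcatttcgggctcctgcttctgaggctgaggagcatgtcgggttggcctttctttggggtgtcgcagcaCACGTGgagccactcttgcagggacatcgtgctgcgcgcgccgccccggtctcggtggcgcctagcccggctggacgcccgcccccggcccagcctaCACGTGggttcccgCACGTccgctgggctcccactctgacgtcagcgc
The Slc16a3 window held 2 matches of ACGTG, that of Slc16a1 held 2 of ACGTG, both from 1 CACGTG, and 2 of GCGTG, that of Hk3 held 1 of ACGTG and that of Ldha 5 of ACGTG, 4 of which belong to 2 CACGTG. The window of Eno2, the member with the lowest ratio, held no match and is not printed.

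Glucose enters through carriers of the SLC2A family. Slc2a3, the gene of the high-affinity carrier GLUT3 (GRCm38 chromosome 6, 122727809 to 122801640), had 155 FPKM in WT and 48.0 FPKM in STAP-1 KO LSCs. Its log2 ratio was -1.69 (counting interval from -1.77 to -1.61). Slc2a1, which encodes the widely expressed GLUT1, had 40.1 and 20.7 FPKM, a log2 ratio of -0.95 that lies just inside the cut-off. Both carriers were thus lower in STAP-1 KO LSCs, and their sum was 195 FPKM in WT and 68.6 FPKM in STAP-1 KO LSCs, a 2.84-fold difference. Slc2a3 remained the main carrier, with 79.4% and 69.9% of the sum.

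Hexokinases trap glucose by phosphorylation, and their 3 genes did not differ in the same direction. Hk1, the housekeeping form (chromosome 10, 62268855 to 62379908), had 167 FPKM in WT and 65.8 FPKM in STAP-1 KO LSCs, a log2 ratio of -1.34 that was inside the cut-off (-0.86) after correction for transcript length and GC content. Hk2, the inducible form, was low in both, with 6.31 and 3.58 FPKM and a ratio inside the cut-off. Hk3, a form typical of myeloid cells (chromosome 13, 55005985 to 55021385), had 7.66 FPKM in WT and 45.2 FPKM in STAP-1 KO LSCs, 5.91-fold more (log2 ratio 2.55, counting interval from 2.33 to 2.80). Its share of the summed hexokinase FPKM was 4.23% in WT and 39.5% in STAP-1 KO LSCs, while the share of Hk1 was 92.3% and 57.4%. The 5 neutrophil primary granule markers, which are expressed in the same lineage, moved with Hk3 at log2 ratios from 2.87 to 3.47, and their part in the difference was not tested. The sum of the 3 hexokinases was 181 and 115 FPKM, less than a 2-fold difference.

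The next steps commit the sugar to glycolysis. Gpi1, which interconverts glucose and fructose 6-phosphate, had 116 and 123 FPKM. Of the phosphofructokinase subunits, the liver type Pfkl had 84.7 and 87.4 FPKM and the muscle type Pfkm 15.6 and 16.1 FPKM, with counting intervals that include a log2 ratio of 0. The platelet type Pfkp (chromosome 13, 6579768 to 6648777) had 127 FPKM in WT and 59.9 FPKM in STAP-1 KO LSCs (log2 ratio -1.09). It was inside the cut-off when the libraries were scaled by a trimmed mean (-0.99) or the ratio was corrected for transcript length and GC content (-0.86). With this, Pfkp had the largest share of the subunits in the WT library (56%, against 37.2% for Pfkl), and Pfkl in the STAP-1 KO library (53.5%, against 36.7% for Pfkp). Pfkp has 16.6% of its 75-base windows in common with the overlapping annotation of Pitrm1, which had 116 and 89.2 FPKM.

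The bifunctional PFKFB enzymes make and break fructose 2,6-bisphosphate, the strongest activator of phosphofructokinase. All 3 genes were low, and lower in STAP-1 KO LSCs. Pfkfb2 had 5.08 and 1.17 FPKM (log2 ratio -2.03) and Pfkfb4 4.36 and 1.18 FPKM (log2 ratio -1.80), both past the cut-off. Pfkfb3, the form with the strongest kinase activity, had 7.17 and 3.62 FPKM and a log2 ratio of -0.97 just inside it. Their sum was 16.6 FPKM in WT and 5.97 FPKM in STAP-1 KO LSCs, 2.78-fold less, and it rested on 40.6 to 247 estimated reads per gene and library. The opposing phosphatase gene Tigar, listed as 9630033F20Rik and not a member, had 0.968 and 2.44 FPKM.

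**Figure D2:**
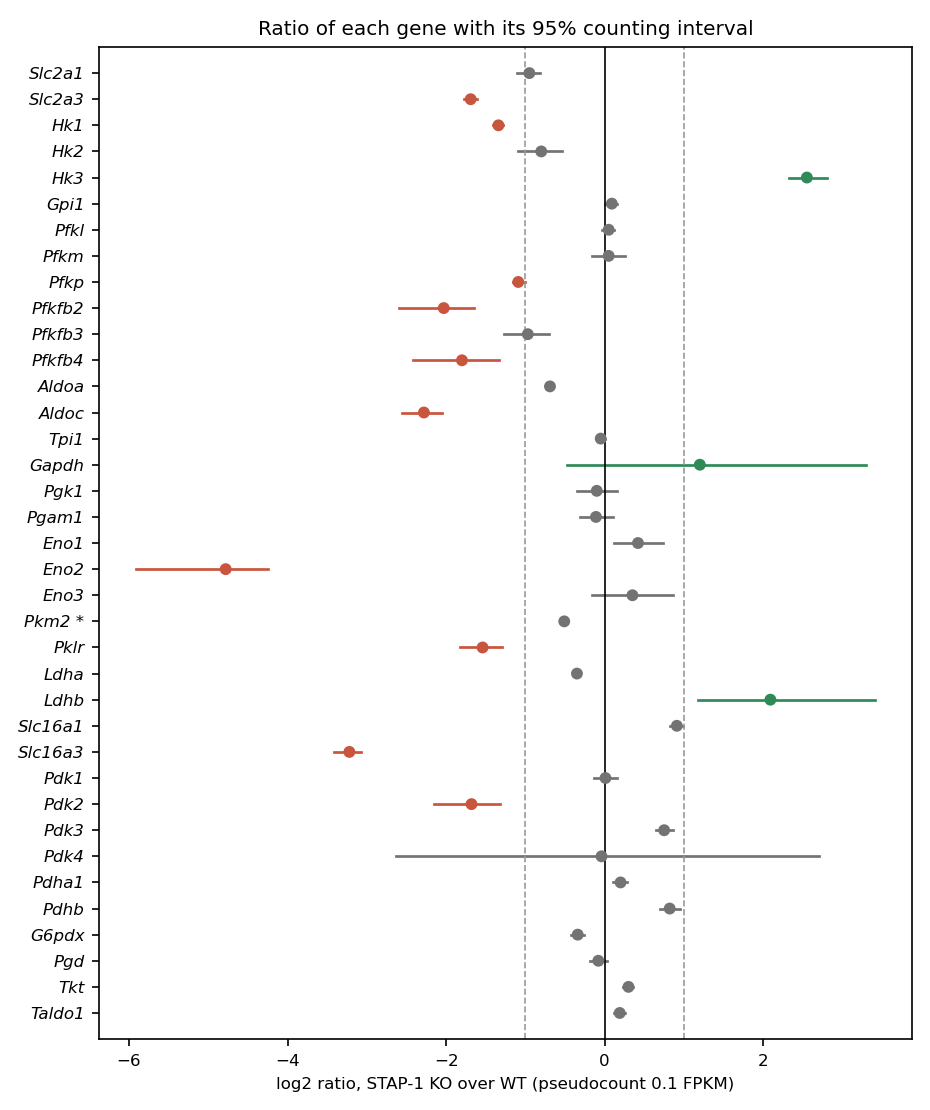
Log2 ratio of STAP-1 KO over WT for each gene in pathway order (points), with the 95% counting interval of the estimated reads (lines); red points are at least 2-fold lower, green points at least 2-fold higher, and dashed lines mark the 2-fold cut-off. Several intervals include 0, among them those of Gapdh, Pdk4, Pfkl, Pgk1 and Eno3, and those of Eno2 and Slc16a3 lie below -3.

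Aldolase cleaves fructose 1,6-bisphosphate into 2 trioses. Aldoa, the main form (chromosome 7, 126795234 to 126800751), had 1111 FPKM in WT and 687 FPKM in STAP-1 KO LSCs (log2 ratio -0.69), and made up 97.3% and 99.1% of the aldolase FPKM. Aldoc, the brain type and a minor form here, had 31.1 and 6.33 FPKM, 4.91-fold less in the STAP-1 KO library (log2 ratio -2.28). The triose phosphate isomerase gene Tpi1 had 485 and 469 FPKM, and its ratio hardly departed from 1 (log2 ratio -0.05). The minor aldolase thus differed more than the major one.

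Gapdh, Pgk1, Pgam1 and Eno1 of the lower pathway were listed far below their neighbours. Gapdh, whose enzyme oxidises glyceraldehyde 3-phosphate and whose mRNA is abundant in most cells, was listed at 0.391 and 1.03 FPKM, about 3.55 and 13 estimated reads. Its ratio is past the cut-off, but the counting interval of its log2 ratio ran from -0.48 to 3.29. Pgk1, the first ATP-yielding enzyme, had 19 and 17.8 FPKM, Pgam1, the mutase, 30.6 and 28.5 FPKM, and Eno1, the common enolase, 9.62 and 12.9 FPKM. All of these enzymes act in 1 chain with Aldoa, Tpi1 and Ldha, which were listed at 469 to 2540 FPKM.

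These genes share much of their sequence with other annotated genes. In GENCODE M21, 80.3% of the 75-base windows of the Gapdh transcript occur without a mismatch in a transcript of another gene, and 132 other genes, 121 of them pseudogenes, share at least 100 windows of 31 bases with it. The share of 75-base windows was 67.5% for Pgk1, 65.4% for Eno1 and 40.6% for Pgam1, and 24.3% or less for every other member. How the authors' mapping treated reads that fit several places is not given in the sources used here. Of the genes that share sequence with Gapdh, 9 are listed in the files, and together they had 4.29 and 6.32 FPKM. The listed levels and ratios of these genes are therefore uncertain, and whether shared reads set their levels was not tested.

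**Figure D3:**
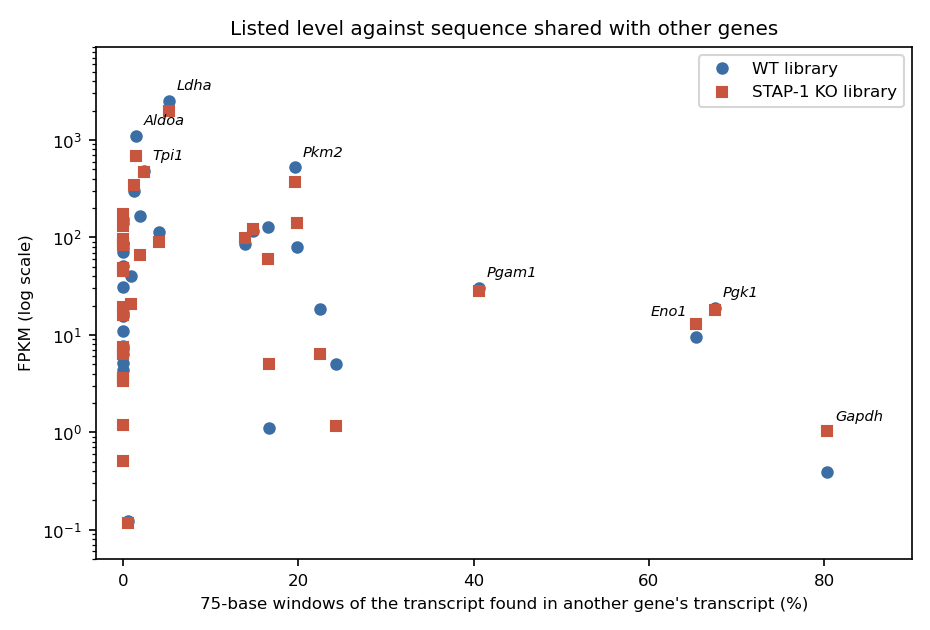
FPKM (log scale) against the share of 75-base windows of the transcript that occur in a transcript of another gene, for the WT library (circles) and the STAP-1 KO library (squares). Gapdh, Pgk1, Eno1 and Pgam1, the genes with 40.6% or more, all lie at or below 30.6 FPKM.

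The other enolases can be read with more certainty, since none of their 75-base windows occurs elsewhere. Eno2, the gene of neuron-specific enolase (chromosome 6, 124760053 to 124769673), had 16.7 FPKM in WT and 0.513 FPKM in STAP-1 KO LSCs, about 325 and 13.9 estimated reads. This was the largest difference of all members, 32.7-fold (log2 ratio -4.78, counting interval from -5.91 to -4.25). Its STAP-1 KO level is below a stricter floor of 1 FPKM, under which Eno2 is not counted, and with a pseudocount of 1 FPKM its log2 ratio was -3.55. Eno3, the muscle form, had 5.09 and 6.51 FPKM, with a counting interval that includes 0. Eno2 made up 53.2% of the listed enolase FPKM in WT and 2.57% in STAP-1 KO LSCs, where Eno1 had 64.7%, but these shares carry the uncertainty of Eno1.

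Pyruvate kinase releases the second ATP. The row Pkm2, which stands for the gene Pkm with both of its splice forms, had 522 and 367 FPKM (log2 ratio -0.51) and made up 96.6% and 98.3% of the pyruvate kinase FPKM. Pklr, the gene of the liver and red cell form (chromosome 3, 89136142 to 89146784), had 18.6 FPKM in WT and 6.30 FPKM in STAP-1 KO LSCs (log2 ratio -1.54). Pklr has 22.5% of its 75-base windows in common with the overlapping gene Hcn3, which had 0.0873 and 0.156 FPKM. The erythroid markers Alas2 (100 and 32.8 FPKM) and Slc4a1 (48.3 and 12.4 FPKM) were also lower, while Klf1 had 103 and 108 FPKM and Epor 28.8 and 28.5 FPKM, and their part in the value of Pklr was not tested.

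Lactate dehydrogenase regenerates NAD+ by turning pyruvate into lactate. Ldha (chromosome 7, 46841475 to 46855627) was the most abundant member, with 2540 FPKM in WT and 1990 FPKM in STAP-1 KO LSCs (log2 ratio -0.35). Ldhb, whose subunit favours the reverse reaction, had 1.11 and 5.03 FPKM, about 9.12 and 57.8 estimated reads, and passed the cut-off (log2 ratio 2.09, counting interval from 1.18 to 3.41). It remained below 1% of the lactate dehydrogenase FPKM, with 0.0437% and 0.252%.

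The 2 members that carry lactate differed in opposite directions. Slc16a3, the gene of the low-affinity exporter MCT4 of glycolytic cells (chromosome 11, 120948480 to 120960868), had 70.3 FPKM in WT and 7.45 FPKM in STAP-1 KO LSCs, 9.44-fold less (log2 ratio -3.22, counting interval from -3.41 to -3.07). Slc16a1, the gene of MCT1 (chromosome 3, 104638668 to 104658462), had 51.5 and 96.7 FPKM, a log2 ratio of 0.91 that lies just inside the cut-off (counting interval from 0.83 to 0.99). The sum of both was 122 and 104 FPKM. A further carrier, Slc16a7, which is not a member, had 3.80 and 6.31 FPKM. MCT4 thus made up 57.7% and 7.15% of the sum, and MCT1 42.3% and 92.9%. The shared subunit Bsg (basigin), which is not a member, had 475 and 402 FPKM.

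**Figure D4:**
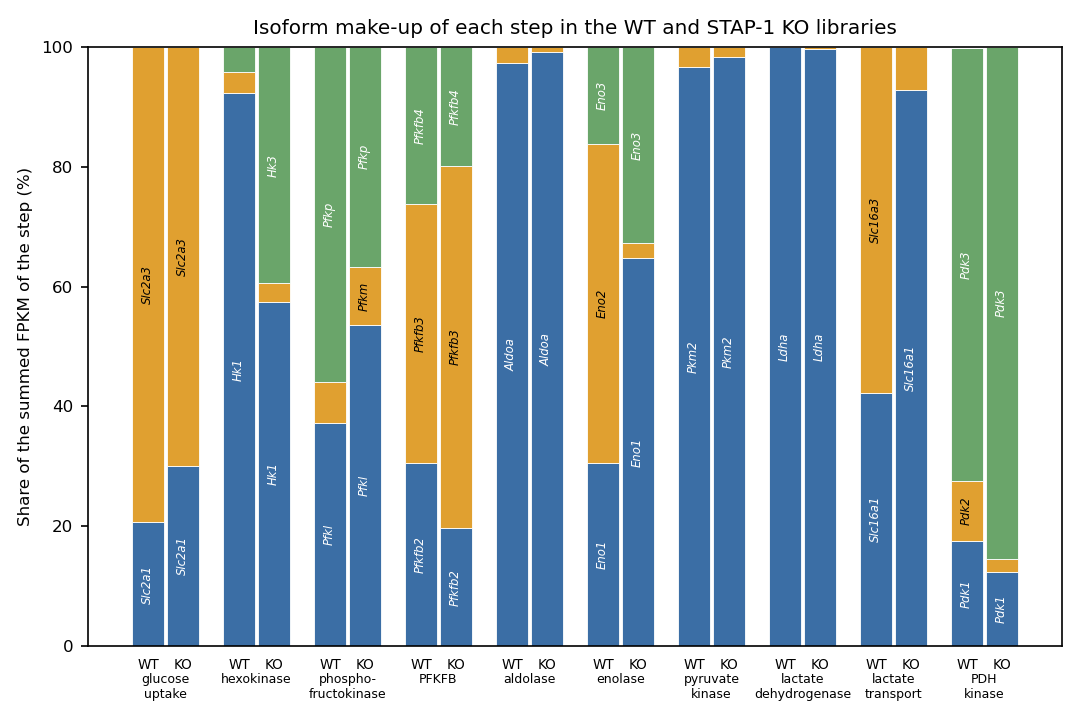
Share of each isoform in the summed FPKM of its step, with the WT library on the left and the STAP-1 KO library on the right of each pair. The leading isoform by listed FPKM differs between the libraries for phosphofructokinase (Pfkp and Pfkl), enolase (Eno2 and Eno1) and lactate transport (Slc16a3 and Slc16a1). For enolase the lead is uncertain, since Eno1 shares 65.4% of its 75-base windows with other genes.

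Pyruvate dehydrogenase takes pyruvate into the mitochondrial pathway, and its kinases (PDK) shut it off. Pdk3 was the main kinase gene, with 78.3 FPKM in WT and 132 FPKM in STAP-1 KO LSCs (log2 ratio 0.75). Pdk1, a known HIF-1 target, had 19 and 19.2 FPKM (log2 ratio 0.01), and Pdk4 was near the floor, with about 3.03 and 4.04 estimated reads. Only Pdk2 passed the cut-off, with 11 and 3.35 FPKM (log2 ratio -1.68). The kinases thus did not differ alike, and Pdk3 made up 72.2% and 85.4% of their sum. Of the enzyme's own E1 subunits, Pdha1 had 86.6 and 99.2 FPKM and Pdhb 80.4 and 142 FPKM, neither past the cut-off. With the length and GC correction the log2 ratio of Pdha1 went from 0.20 to -0.02 and that of Pdhb from 0.82 to 0.25. The other subunits, listed as context, were inside the cut-off too, with 34.0 and 47.0 FPKM for Dlat, 79.4 and 134 FPKM for Dld and 19.5 and 35.6 FPKM for Pdhx.

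None of the 4 pentose phosphate members passed the cut-off. G6pdx, the entry enzyme and first source of NADPH (chromosome X, 74409483 to 74429194), had 114 and 90.4 FPKM, and Pgd, which yields NADPH again, 87.7 and 83.2 FPKM. Tkt and Taldo1, which shuffle sugars between ribose 5-phosphate and the glycolytic intermediates, had 142 and 174 FPKM and 301 and 343 FPKM. Their log2 ratios lay between -0.34 and 0.30, a narrow range that rests on 4 genes. Pentose phosphate genes that are not members ranged more widely, from -2.03 (Tktl1) to 0.79 (Rpia), both at low levels. The 26 members from glucose uptake to lactate export ranged from -4.78 to 2.55, with a median of -0.69 over the 25 kept for medians. G6pdx shares sequence with G6pd2 (14.4 and 11.6 FPKM) and Ikbkg (14.3 and 7.52 FPKM), and 4.19% of its 75-base windows occur in other genes.

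The other enzymes and carriers of these pathways, 33 genes listed as context, did not point one way. Of the 28 past the floor, 5 were at least 2-fold lower and 4 at least 2-fold higher. Among all genes past the floor, 22.9% were lower and 12.3% higher. The 27 kept for medians had a median log2 ratio of 0.27. The lower genes were the carriers Slc2a6 (51.5 and 12.4 FPKM) and Slc2a8 (13.3 and 5.25 FPKM), H6pd (9.39 and 4.32 FPKM), Pgam2 (2.87 and 0.821 FPKM) and Tktl1 (0.825 and 0.127 FPKM). The higher genes were Tigar, Pfkfb1 (0.970 and 3.35 FPKM), the gluconeogenic Fbp1 (1.96 and 7.49 FPKM) and G6pc3 (43.1 and 105 FPKM), a glucose 6-phosphatase needed by neutrophils. With the length and GC correction H6pd was inside the cut-off (log2 ratio -0.37), and Tktl1 was too low to be corrected. Of the 27 genes with a corrected value 3 were lower and 6 higher, against 18.1% and 9.23% of all genes. Among the genes inside the cut-off, the phosphoglucomutases Pgm1, Pgm2 and Pgm3 had 81.4 and 73.5, 58.7 and 55.2, and 7.92 and 9.59 FPKM. Adpgk had 21.8 and 18.2 FPKM and Bpgm 29.5 and 18.5 FPKM. The mitochondrial pyruvate carrier genes, listed as Brp44l and Brp44, had 9.54 and 10.7 FPKM and 63.4 and 92.7 FPKM. The pyruvate dehydrogenase phosphatases Pdp1 and Pdp2 were low in both libraries, with 4.91 and 5.82 FPKM and 2.51 and 2.24 FPKM. In the pentose phosphate pathway Pgls had 107 and 147 FPKM, Rpe 37.2 and 55.3 FPKM, Rpia 0.768 and 1.40 FPKM and Shpk 4.30 and 2.45 FPKM. Pck2 had 18.9 and 33.0 FPKM. Pck1, of gluconeogenesis, was listed at 0 in both libraries.

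The question posed for these genes was how they stood against the lower Hif1a and the higher Myc. Hif1a had 130 FPKM in WT and 36.5 FPKM in STAP-1 KO LSCs (log2 ratio -1.83), and its partner Arnt 18.3 and 8.16 FPKM (log2 ratio -1.15). Hif3a had 3.16 and 0.228 FPKM and Epas1 was near the floor, with 0.363 and 0.0743 FPKM. Of the oxygen-sensing hydroxylases, Egln1 had 26.7 and 11.5 FPKM, Hif1an 8.32 and 3.43 FPKM and Egln2 32.5 and 26.8 FPKM, whereas Egln3 was higher, with 4.59 and 11.1 FPKM. Vhl, which marks hydroxylated HIF for degradation, had 24.8 and 17.2 FPKM. With the length and GC correction the log2 ratios of Arnt (-0.97), Egln1 (-0.89) and Hif1an (-0.66) were inside the cut-off, and Hif1a (-1.68) was past it. In the MYC network, Myc had 59.3 and 169 FPKM (log2 ratio 1.51) and Mycn 9.66 and 31.6 FPKM (log2 ratio 1.70), whereas Mycl1 was lower, with 3.77 and 0.610 FPKM (log2 ratio -2.45). Their partner Max had 9.16 and 5.45 FPKM, and the antagonists Mxd1 (44.5 and 8.52 FPKM) and Mnt (2.96 and 0.720 FPKM) were at least 2-fold lower. Inside the cut-off were Mxd3 (6.68 and 7.91 FPKM), Mxd4 (15.1 and 7.77 FPKM), Mga (3.55 and 1.98 FPKM), Mlx (50.7 and 48.3 FPKM) and Mlxip (24.0 and 17.1 FPKM). Over the 11 network genes kept for medians the median log2 ratio was -0.74, and 8 of them were below 0. With the correction Max was past the cut-off (log2 ratio -1.14), and 4 network genes were lower in place of 3.

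The medians of HIF-1 and MYC targets outside glycolysis lay on opposite sides of those of the members and of all genes. The 21 HIF-1 targets kept for medians had a median ratio of -1.21 (log2), and of the 22 past the floor 11 were at least 2-fold lower and 2 at least 2-fold higher. Among all genes past the floor, 22.9% were lower and 12.3% higher. With a pseudocount of 1 FPKM the genes of the list that differed most were Ero1l (996 and 92.5 FPKM), P4ha2 (22.5 and 2.68 FPKM) and Ndrg1 (126 and 24.1 FPKM), which were lower. Egln1 and Egln3 stand in this list too. The 31 MYC targets had a median of 0.93, and of the 32 past the floor 13 were at least 2-fold higher and 1, Cad, at least 2-fold lower (38.2 and 9.13 FPKM). Cad has a transcript of 7137 bases, and its log2 ratio went from -2.05 to -0.81, inside the cut-off, with the length and GC correction. The correction left 4 of the 13 higher MYC targets past the cut-off and brought others past it, so that 7 of 31 were higher and 0 lower. Of the 21 HIF-1 targets, 9 were then lower and 1 higher. Among all genes, 18.1% were lower and 9.23% higher with the correction. At a pseudocount of 1 FPKM Cad differed most of the MYC targets, followed by Fbl (4.49 and 13.1 FPKM) and Hspe1 (114 and 287 FPKM), which were higher, Hspe1 inside the cut-off (log2 ratio 0.77) with the correction. The members had a median of -0.10 between these values, near the -0.04 of all genes kept for medians. No test of the difference between the lists is possible with 1 library per genotype.

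**Figure D5:**
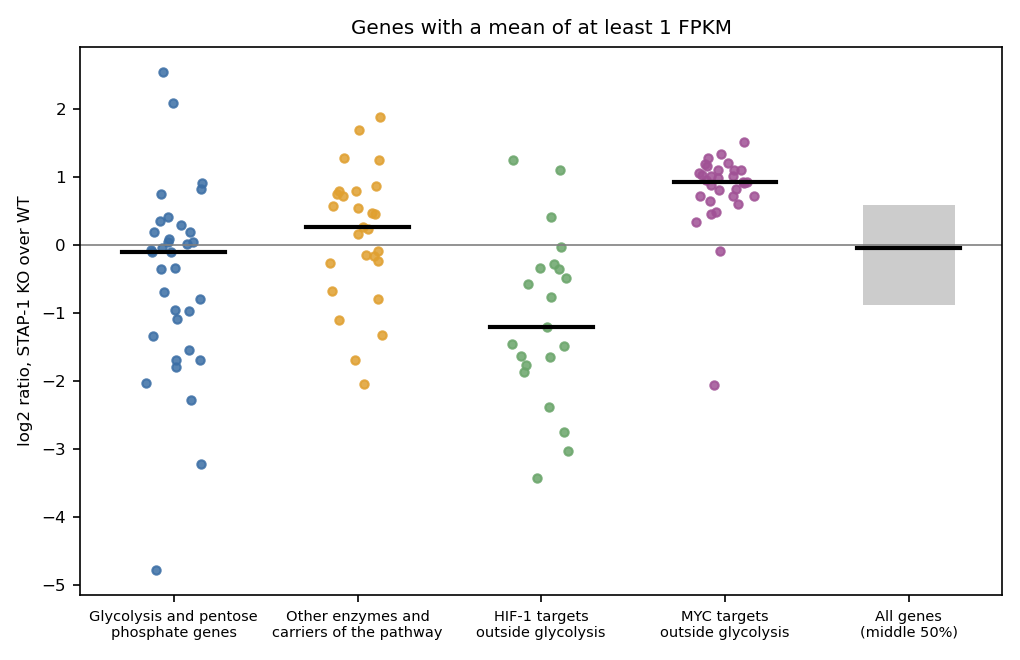
Log2 ratio of STAP-1 KO over WT for genes that average 1 FPKM or more (points) in the members and 3 context lists, with the median of each (black bars); the grey box spans the quartiles of all 10974 genes, from -0.88 to 0.59. The members have a median of -0.10, the HIF-1 targets of -1.21 and the MYC targets of 0.93.

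Motif letters in the gene starts were counted over all members. RefSeq windows were found for 35 of the 36 members. Of these, 31 genes (88.6%) had ACGTG or GCGTG in at least 1 window, against 61.3% of 8962 genes past the floor with a window and 41.5% of all 27025 genes in the table. CACGTG was found for 6 members (17.1%), against 9.92% of the genes past the floor. The letters were found for 7 of the 9 lower members with a window (77.8%), for all 3 higher members and for 21 of the 23 members inside the cut-off (91.3%). The share was thus not higher among the members past the cut-off than among those inside it, and the matches are a description of the sequence, not of binding.

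The ratio of these libraries varied with transcript length, and this bears on long members. Across the 10862 genes kept for medians that have an annotated transcript, the median log2 ratio was 0.54 in the tenth with the shortest transcripts (up to 1189 bases) and -0.99 in the tenth with the longest (from 6253 bases). The members' transcripts range from 1304 to 5513 bases. After the ratios were corrected for length and GC content of the transcripts, Hk1 and Pfkp were inside the cut-off, with a log2 ratio of -0.86 each, and Slc16a1 was past it, with 1.09. Eno2 (-4.78), Slc16a3 (-2.63), Aldoc (-2.24) and Hk3 (2.93) stayed past it. In all, 8 of the 34 members were then lower and 3 higher (Hk3, Ldhb and Slc16a1), against 18.1% and 9.23% of all genes, and Gapdh and Pdk4 were too low to be corrected. The correction brought Hk2 from -0.80 to -0.06 and Pfkfb3 from -0.97 to -0.34.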

How the data were processed

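RNA-seq gave 1 WT and 1 STAP-1 KO library of CML LSCs. The authors mapped 75-base single reads to mm10 (GRCm38) with TopHat 2.0.13, Bowtie2 2.2.3 and SAMtools (1.0 in the methods, 0.1.19 in the submitters' processing notes) and deposited FPKM values made with Cuffnorm 2.2.1. The annotation, the library scaling and the treatment of reads that fit several places are not given in the sources used here. Ratios, medians and shares were computed in Python 3.11.15 (scipy 1.17.1, pandas 2.3.3, numpy 2.4.6), and the functions were tested on simulated data. No test was possible with 1 library per genotype.

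Symbols were matched to GENCODE M21 (20911 as written, 1911 by an older symbol, 462 unmatched), and the longest coding transcript gave length, GC content and shared windows. Estimated reads are FPKM times the transcript length less 208 bases times an effective depth, which was read from low values (below 0.3 FPKM) of genes with 1 transcript. Of 323 WT and 398 STAP-1 KO values, 47.1% and 48.5% were whole reads to within 0.01, where evenly spread values would give 2%. Promoter windows are from RefSeq (GRCm38.p6). The members and lists were chosen with earlier results of these data known. All members are named. The rule for names also took the pathway, HIF and MYC network genes and, of each target list, the 3 with the largest difference at a pseudocount of 1 FPKM. Genes of these lists below the floor are mostly only counted, and some genes of the context lists are not reported here. The marker genes were named after their values were seen. Alternatives changed the pseudocount, floor, filter, cut-off and scaling and corrected for length and GC content in 20 bins each. 2 were added after seeing the data.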

Additional observations from a re-analysis of the deposited data

How the results depend on the processing

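With 1 library per genotype no replicate could be left out. No paired analysis was possible because each genotype has 1 library and the result comes from no test. Under pseudocounts of 1 and 0.01 FPKM, 3 scalings and the correction for length and GC content of transcripts, no member past the cut-off changed sign, and 6 members inside it did in at least 1 setting. At a 1.5-fold cut-off 14 members were lower and 6 higher, against 32.8% and 25.6% of all genes past the floor, and at a 4-fold cut-off 4 were lower and 2 higher, against 8.56% and 2.40%. Scaling by a trimmed mean gave 9 lower members, without Pfkp, and 4 higher, with Slc16a1. With that scaling 2626 of all genes were lower and 1868 higher. The correction gave 8 and 3 members, against 18.1% and 9.23% of all genes. A floor of 1 FPKM in both libraries gave 9 and 2, as Eno2 and Gapdh are below it. The share of all genes at that floor is not given. The members' median was 0.00 with the trimmed mean, -0.32 with the correction and -0.34 without the 4 members that share 40% or more of their 75-base windows with other genes, an alternative added after seeing the data. The median of the HIF-1 targets outside glycolysis was -0.76 without a filter on low values, -0.98 at a mean of at least 5 FPKM and -0.89 with the correction. The medians of the HIF factors and of the MYC targets were -0.77 and 0.80 with the correction, and that of the MYC network was -0.28 at a mean of at least 5 FPKM. With the correction the MYC targets at least 2-fold higher went from 13 to 7, the HIF factors lower from 5 to 2 and the other pathway genes lower from 5 to 3. When FPKM was multiplied by transcript length, the shares in the WT and STAP-1 KO libraries were 82.4% and 73.8% for Slc2a3, 59.4% and 40% for Pfkp, 95.2% and 98.4% for Aldoa, 95.9% and 98.0% for Pkm2 and 57.3% and 72.2% for Pdk3. The share of Hk1 was 63.0% in the STAP-1 KO library, that of Pfkfb3 47.7% and that of Eno2 63.0% in the WT library, and that of Ldha 99.8% in the STAP-1 KO library. The shifts of the shares follow from the multiplication, which raises the weight of longer transcripts. The cause of the shifts of the medians and counts was not tested. Depth limits the values of Gapdh, Pdk4 and Ldhb, each of which rests on fewer than 10 estimated reads in the WT library.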
